A study of Homo sapiens with 4 samples.

Results

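A set of 6 noncoding RNAs that act inside ribonucleoprotein particles was described in small RNA libraries: RPPH1 (the RNA of RNase P), RMRP (the RNA of RNase MRP), RN7SK (7SK RNA), RN7SL1 and RN7SL2 (both genes of 7SL RNA) and TERC (telomerase RNA). They were chosen by name, by a rule that uses no measured value although earlier results of these data were known, and are 6 of the 26485 genes in the deposited table. All cells were HCT116, a human colon carcinoma line, in its Drosha k.o. form, in which, per the labels, the gene of the nuclease that starts miRNA processing is knocked out in both groups. The CD95L cells had been infected with pLenti-CD95L, a lentiviral vector with a CMV promoter, RFP and a puromycin resistance gene that carried CD95L (gene symbol FASLG, the ligand of the death receptor CD95), and the vector cells had been infected with the empty pLenti. Both were selected with 3 µg/mL puromycin for 2 days and harvested at 50 h, which the methods and 1 label count from plating after selection and another label from selection. Total RNA was made into small RNA libraries, 2 per group. The labels say only CD95L, but the form described for HCT116 in the methods is one mutated so as not to bind its receptor and given a stop codon just after its start codon. Infected cells were pooled within a culture, and the methods say that the procedure from plating to harvest was carried out in duplicate. Whether the duplicates shared a virus batch or a day is not stated, so the p-values measure the spread between 2 such duplicates. Both vector titles carry the mark (# 2) and neither CD95L title does. Its meaning was not given in the sources used here, and anything it stands for cannot be told apart from the groups.

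The 6 RNAs belong to ancient and abundant machines of the cell. RNase P and RNase MRP are nucleases with an RNA at their centre and a largely shared set of proteins. RNase P trims the 5′ ends of precursor tRNAs, and RNase MRP cuts precursor ribosomal RNA. 7SK RNA holds the transcription elongation factor P-TEFb in an inactive particle, and 7SL RNA is the scaffold of the signal recognition particle, which brings ribosomes that make secreted proteins to the endoplasmic reticulum. Telomerase RNA carries the template from which telomere repeats are copied. RNA polymerase III transcribes all of these RNAs except TERC, which RNA polymerase II transcribes. All are longer than the RNAs that small RNA kits are made for, so reads on them come from pieces or ends of the RNA, and the table does not say which piece.

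The genes were placed on hg38, the build of the authors' alignment, with GENCODE v44. RPPH1 is the ribozyme gene at chr14:20343075-20343407 on the minus strand (333 bases), and RMRP is the ribozyme gene at chr9:35657754-35658017 on the minus strand (264 bases). RN7SK lies at chr6:52995621-52995948 on the plus strand (328 bases, annotated as snRNA). RN7SL1 (plus strand, 299 bases) and RN7SL2 (minus strand, 300 bases) both lie on chromosome 14 and are annotated as miscellaneous RNA. TERC lies at chr3:169764520-169765060 on the minus strand (541 bases, annotated as lncRNA). Each transcript has 1 exon and no coding sequence. RN7SL1 falls within the span of RPS29, a ribosomal protein gene on the opposite strand, without touching one of its exons. RPPH1 and RN7SL2 each overlap an exon of a lncRNA gene on their own strand. RN7SK and TERC each overlap a miscellaneous RNA entry on their own strand, named 7SK and Telomerase-vert. None of these overlapping entries on the same strand has a row in the table.

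RMRP and RPPH1 are shown to mark the few stretches that are not unique in the genome. Capitals mark bases inside 20-base windows that have a second exact match in hg38, and of RPPH1 the first 300 bases are given.
RMRP: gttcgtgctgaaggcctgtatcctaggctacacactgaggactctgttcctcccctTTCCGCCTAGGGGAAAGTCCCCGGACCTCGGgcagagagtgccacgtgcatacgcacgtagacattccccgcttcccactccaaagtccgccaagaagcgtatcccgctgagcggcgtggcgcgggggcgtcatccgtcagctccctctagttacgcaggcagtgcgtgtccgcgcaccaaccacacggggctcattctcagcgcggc
RPPH1: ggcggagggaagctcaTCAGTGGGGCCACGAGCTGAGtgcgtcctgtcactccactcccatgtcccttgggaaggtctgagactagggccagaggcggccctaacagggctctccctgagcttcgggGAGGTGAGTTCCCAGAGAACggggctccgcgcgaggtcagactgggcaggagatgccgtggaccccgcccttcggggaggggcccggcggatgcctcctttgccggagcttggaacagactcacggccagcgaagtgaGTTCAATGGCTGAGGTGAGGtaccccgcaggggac
In RMRP these bases were one stretch, at positions 57 to 87, and in RPPH1 they were 3 short stretches, at positions 17 to 37, 128 to 147 and 266 to 285.

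The first 100 bases of RN7SK and TERC hold the elements for which each RNA is best known. In RN7SK capitals mark GATC (GAUC in the RNA), which recurs in the 5′ hairpin that the HEXIM proteins bind, and in TERC they mark CTAACCCTAAC, the longest stretch of these bases that repeats itself with the period of the telomere repeat, which is the template.
RN7SK: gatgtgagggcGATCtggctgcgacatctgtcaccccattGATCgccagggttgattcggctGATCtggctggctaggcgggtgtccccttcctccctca
TERC: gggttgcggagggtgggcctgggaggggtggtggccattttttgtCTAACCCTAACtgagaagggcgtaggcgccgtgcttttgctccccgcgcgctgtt
GATC stood at positions 12, 41 and 63 of RN7SK. Of 249762 GENCODE transcripts of at least 100 bases, 22.2% held GATC at least 1 time in their first 100 bases and 0.287% at least 3 times. The TERC template stood at positions 46 to 56, and 0.0016% of transcripts held it in their first 100 bases. Motifs were searched on the transcript strand, and a match is a description of the letters only.

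How much of each RNA could be told from the rest of the genome was measured as the share of its windows that had exactly 1 exact match in hg38 on either strand. The RNAs fell into a unique and a repeated set. For windows of 20 bases, 98.7% of those of RPPH1, 95.1% of RMRP and 98.3% of TERC occurred once, against 0 of 309 windows of RN7SK, 0 of 280 of RN7SL1 and 0 of 281 of RN7SL2. The median 20-base window of RN7SL1 and of RN7SL2 had 21 matches, and that of RN7SK had 10. For windows of 30 bases, the share that occurred once was 9.36% in RN7SK, 0 of 270 windows in RN7SL1 and 4.06% in RN7SL2. For windows of 50 bases it was 22.9% in RN7SK, 15.6% in RN7SL1, 13.1% in RN7SL2 and 100% in the 3 others. GENCODE lists 678 further genes named as RN7SL copies and 293 named as RN7SK copies, against 1 of RMRP and 2 of RPPH1. None of these has a row in the table, which holds 2 symbols that start with RN7SL and 1 each that starts with RN7SK, RMRP or RPPH1. How the authors treated reads with several matches was not given in the sources used here, so the levels of RN7SK, RN7SL1 and RN7SL2 are uncertain in a way that those of RPPH1, RMRP and TERC are not. In the same table, the repeated U6 genes RNU6-1, RNU6-2, RNU6-7, RNU6-8 and RNU6-9 and the 5S gene RNA5S1 were listed at 0 in every library. Cells use U6 and 5S RNA throughout, so these zeros give no limit on their level.

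**Figure D1:**
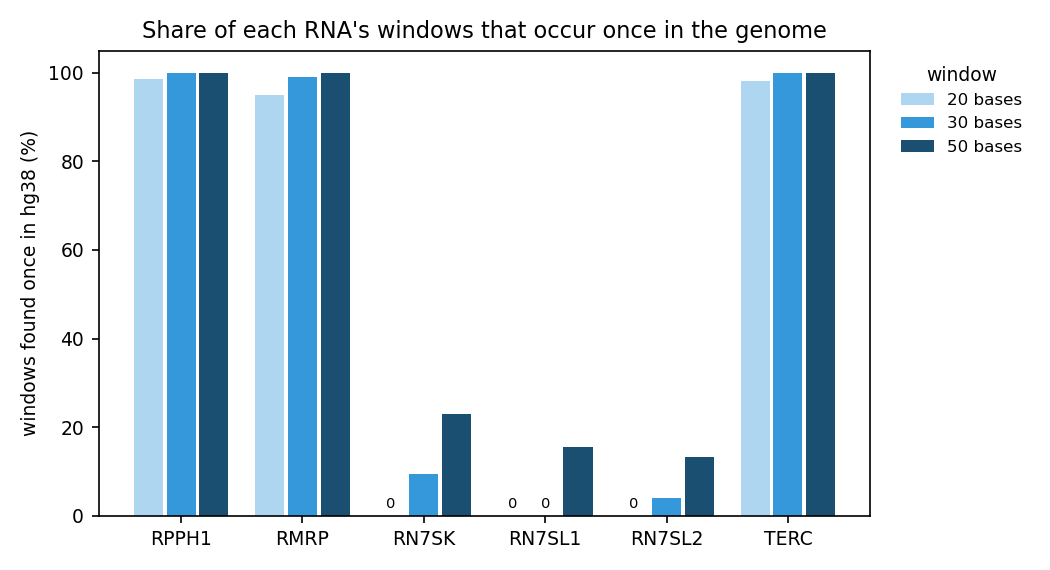
Percent of the windows of 20, 30 and 50 bases of each RNA (y axis) that have exactly 1 exact match in hg38, for the 6 RNAs (x axis); a 0 marks a bar of no height. RPPH1, RMRP and TERC stand at 95.1% or more at each window length, and RN7SK, RN7SL1 and RN7SL2 at 22.9% or less.

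The table gave CPM, reads per 1000000 reads counted in genes, and the reads behind them were recovered as whole numbers. Totals were 22897068 and 22488145 reads in CD95L cells, against 24915394 and 25163566 reads in vector cells, so that 1 read was worth between 0.0397 and 0.0445 CPM. FASLG, the gene the vector carried, had 94.9 and 90.5 CPM in CD95L cells, against 1.16 and 2.94 CPM in vector cells, and it was the 1 gene of 16127 tested that passed the threshold (difference 5.00 on the log2(CPM + 1) scale, SE 0.30, limma adjusted p = 3.5e-05). DROSHA fragments stood at 10.1 and 13.6 CPM in CD95L cells, against 13.6 and 10.4 CPM in vector cells, which does not check the knockout, since an inactivated gene can still give RNA. Of 8 markers of colon epithelium, 6 reached a mean of 1 CPM (highest mean 55.9 CPM), and KRT20 and VIL1 did not. The same mean was reached by 3 of 4 fibroblast markers (highest 17.6 CPM), 2 of 3 leukocyte markers (4.25 CPM) and 2 of 3 endothelial markers (50.9 CPM). Marker mRNAs read as short fragments therefore did not separate the colon line from other cell types.

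All 6 RNAs had many reads, 4245 to 99599 per library, although the origin of those on RN7SK, RN7SL1 and RN7SL2 is uncertain, as given above. RMRP and RPPH1 had the most reads. RMRP had 4350 and 3383 CPM in CD95L cells, against 2314 and 3547 CPM in vector cells. RPPH1 had 2741 and 1997 CPM in CD95L cells, against 1285 and 2071 CPM in vector cells. For both, the first CD95L library was the highest and the first vector library the lowest, and the second vector library stood slightly above the second CD95L library, so the groups overlapped.

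The 7SL genes showed the same order with a wider spread. RN7SL1 had 1276 and 845 CPM in CD95L cells, against 492 and 1174 CPM in vector cells. RN7SL2 had 1141 and 744 CPM in CD95L cells, against 413 and 1013 CPM in vector cells. For both genes, as for RPPH1, RMRP and TERC, the distance between the vector libraries was greater than that between the means of the groups.

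TERC and RN7SK were the least abundant. TERC had 290 and 216 CPM in CD95L cells, against 180 and 277 CPM in vector cells, and its groups overlapped as well. RN7SK had 213 and 193 CPM in CD95L cells, against 170 and 186 CPM in vector cells. RN7SK was the 1 RNA of the 6 whose CD95L libraries both lay above both vector libraries, a pattern that 16.0% of all genes tested had, while 19.0% had the reverse. Under TMM scaling, RN7SK lost it, and 2720 genes but none of the 6 RNAs had it.

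**Figure D2:**
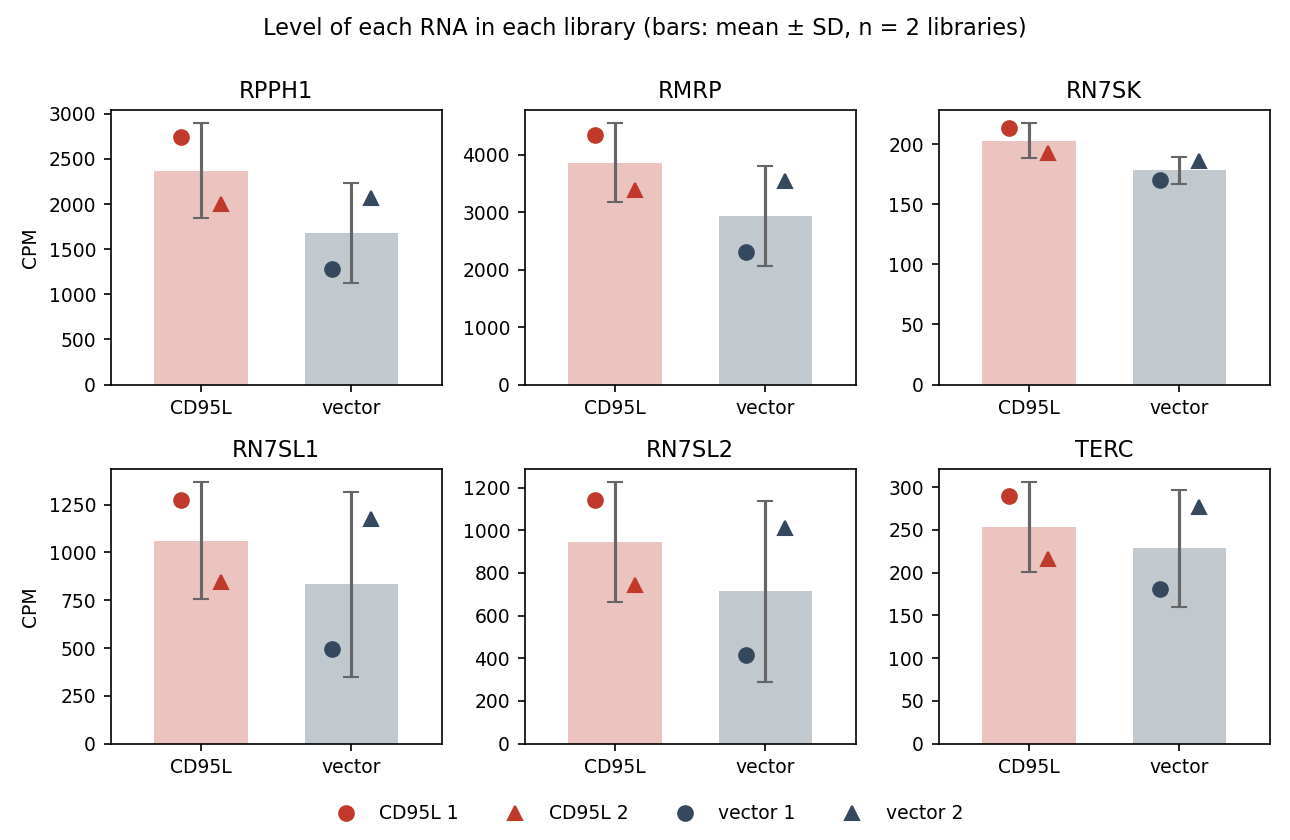
CPM (y axis, from 0) of each of the 6 RNAs in the CD95L and vector libraries (x axis); points are libraries, bars are means and error bars SD over 2 libraries per group. The first CD95L library is the highest point in every panel and the first vector library the lowest, and the groups overlap in every panel but that of RN7SK, whose groups overlap as well under TMM scaling.

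Per length, the levels kept 1 order in each of the 4 libraries: RMRP, RPPH1, RN7SL1, RN7SL2, RN7SK, TERC. RMRP averaged 1465 ± 259 CPM per 100 bases in CD95L cells, against 1110 ± 330 in vector cells (SD over 2 libraries each, as in what follows). RPPH1 averaged 711 ± 158 CPM per 100 bases in CD95L cells and 504 ± 167 in vector cells, less than RMRP in every library. RN7SL1 averaged 355 ± 102 CPM per 100 bases in CD95L cells and 279 ± 161 in vector cells. RN7SL2 averaged 314 ± 93.7 in CD95L cells and 238 ± 141 in vector cells, less than RN7SL1 in every library. The distance was smaller than the SD within either group, and how reads with several matches were shared between these genes was not given. RN7SK averaged 61.9 ± 4.42 CPM per 100 bases in CD95L cells and 54.3 ± 3.38 in vector cells, and TERC averaged 46.8 ± 9.66 in CD95L cells and 42.3 ± 12.6 in vector cells. The place of TERC depended on the transcript model: with the RefSeq length of 451 bases instead of 541, TERC averaged 56.2 CPM per 100 bases in CD95L cells and 50.7 in vector cells, near the level of RN7SK.

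The question of the design, whether the level of each RNA differed between CD95L and vector cells, was tested with limma on log2(CPM + 1) across the 16127 genes that averaged 1 CPM or more. None of the 6 RNAs passed an adjusted p of 0.05, beside a background of 0.0062% of all genes, and none had an unadjusted p under 0.05, beside 5.38% of all genes. RPPH1 differed by 0.52 (SE 0.30, 95% interval -0.13 to 1.17, adjusted p = 0.923), the largest value of the 6. RMRP differed by 0.42 (interval -0.20 to 1.04) and RN7SK by 0.19 (interval -0.35 to 0.72). RN7SL1 differed by 0.45 (interval -0.38 to 1.27) and RN7SL2 by 0.51 (interval -0.33 to 1.35). TERC differed by 0.16 (interval -0.46 to 0.79). Every interval held 0, and the upper ends corresponded to levels between 1.65 and 2.55 times higher in CD95L cells, so the data did not bar differences of up to that size. The interval of RN7SK was the narrowest and that of RN7SL2 the widest.

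Count tests on the recovered reads gave the same outcome. By edgeR's quasi-likelihood test, the adjusted p of the 6 RNAs lay between 0.884 and 0.976, and 0.366% of the genes tested were called. By DESeq2, the adjusted p was 0.999 for each of the 6, and 0.241% of the genes were called. Neither tool gave any of the 6 an unadjusted p under 0.05.

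All 6 differences were positive, as were those of 49.2% of all genes tested, and their median was 0.43, beside -0.01 over all genes tested and 0.01 over the 404 genes that averaged 100 CPM or more. At 100 CPM or more, differences were also positive for 101 of 116 C/D box snoRNAs and 13 of 16 H/ACA box snoRNAs. They were positive for 7 of 8 small Cajal body RNAs, 6 of 10 snRNAs and 2 of 2 ribosomal RNA genes. Classes were set by gene symbol alone, and whether reads on a miRNA symbol came from a miRNA was not tested. The count of positive differences was 0 of 4 for Y RNAs, 0 of 4 for vault RNAs and 4 of 19 for miRNA symbols. It was 68 of 219 for genes of no named class. These values are a description, since the 6 RNAs were measured in the same 4 libraries and moved together between them. The sign of 3 of them and the median rested on single libraries. Without the first vector library, the difference was -0.18 for RN7SL1, -0.14 for RN7SL2 and -0.14 for TERC, and the median of the 6 was -0.012. Without the first CD95L library, TERC differed by -0.05 and the median was 0.18. Without the second vector library, the median was 0.80, with RN7SL1 at 1.07 and RN7SL2 at 1.16, and without the second CD95L library it was 0.67. RPPH1, RMRP and RN7SK stayed positive whichever library was left out, between 0.18 and 0.86 for RPPH1, between 0.11 and 0.73 for RMRP and between 0.11 and 0.26 for RN7SK, with no adjusted p under 0.05.

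**Figure D3:**
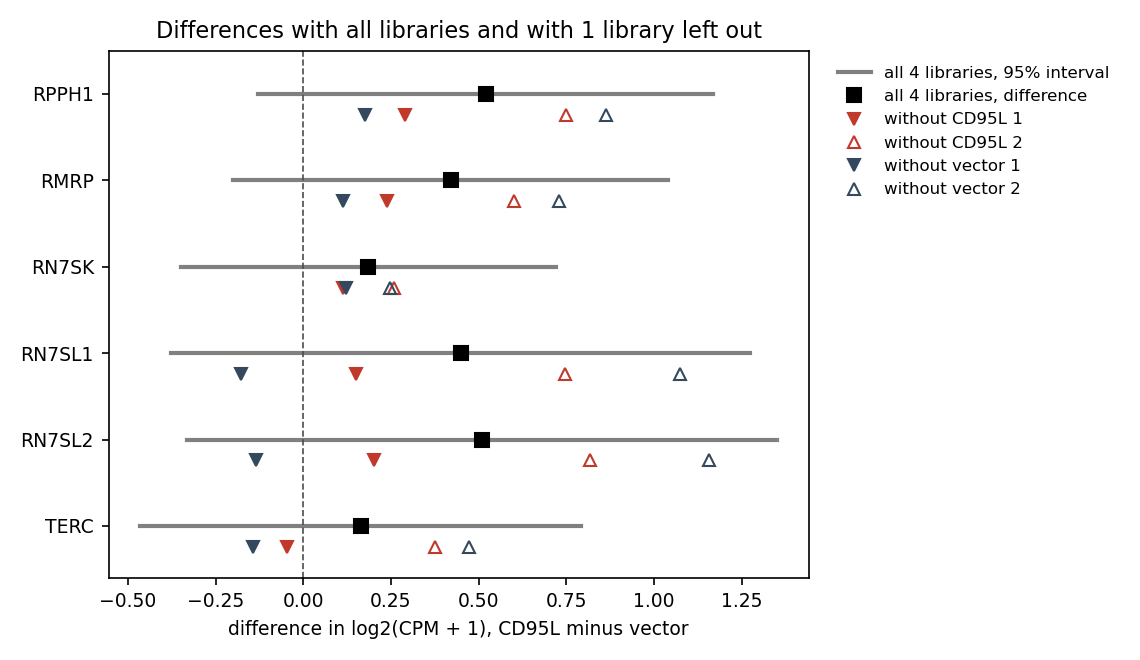
Difference in log2(CPM + 1) between CD95L and vector cells (x axis) for the 6 RNAs (rows); squares and lines are the limma difference and its 95% interval from all 4 libraries, and triangles the difference with 1 library left out. Each interval crosses 0, and for RN7SL1, RN7SL2 and TERC the value without the first vector library lies below 0.

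Libraries of 1 group differed from each other as well. The first CD95L library exceeded the second 1.53-fold for RN7SL2, 1.51-fold for RN7SL1, 1.37-fold for RPPH1, 1.34-fold for TERC, 1.29-fold for RMRP and 1.11-fold for RN7SK. The second vector library exceeded the first 2.45-fold for RN7SL2, 2.39-fold for RN7SL1, 1.61-fold for RPPH1, 1.54-fold for TERC, 1.53-fold for RMRP and 1.09-fold for RN7SK. RN7SL2 and RN7SL1 were thus the most variable of the 6 in both groups and RN7SK the least. Among the 404 genes that averaged 100 CPM or more, the residual SD of RN7SL2 lay at the 98.3 percentile and that of RN7SL1 at the 97.8 percentile, those of RPPH1, TERC and RMRP at the 81.4, 78.5 and 77.5 percentiles, and that of RN7SK at the 19.1 percentile.

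Of the 6 RNAs, 5, all but RN7SK, had their libraries in 1 order, with the first CD95L library highest, then the second vector library, the second CD95L library and the first vector library. This order, singled out after the values were seen, was found in 2.57% of all genes tested and in 14.6% of the genes of at least 100 CPM (59 of 404). By class, it was found in 34 of 116 C/D box snoRNAs (guides of ribosomal RNA methylation), 7 of 16 H/ACA box snoRNAs (guides of pseudouridylation), 5 of 10 snRNAs and both ribosomal RNA genes. It was found in 0 of 4 Y RNAs, 0 of 4 vault RNAs and 1 of 19 miRNA symbols. The count was 1 of 8 for small Cajal body RNAs and 4 of 219 for genes of no named class. The share of all reads on C/D box snoRNAs was 49.0% and 43.5% in CD95L cells, against 38.9% and 43.7% in vector cells, and its part in the values of the 6 RNAs was not tested.

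**Figure D4:**
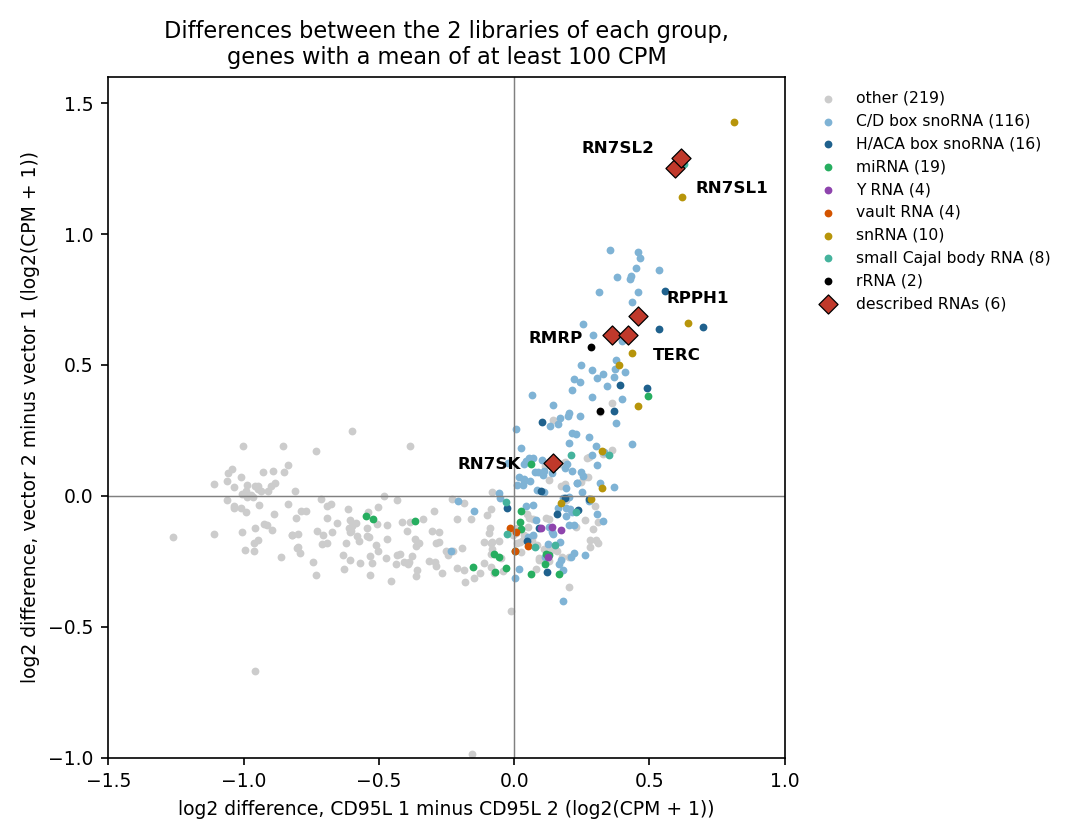
Difference in log2(CPM + 1) between the CD95L libraries (x axis, first minus second) and between the vector libraries (y axis, second minus first) for 399 of the 404 genes that averaged 100 CPM or more, coloured by class; 5 genes lie outside the axes. The 6 RNAs (diamonds) lie in the upper right with many C/D box snoRNAs, and of the 6 RN7SL1 and RN7SL2 lie farthest out and RN7SK nearest to 0.

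The 5 genes whose pattern over the 4 libraries was closest to the mean pattern of the 6 RNAs were all C/D box snoRNAs. That class held 116 of the 398 candidates. SNORD47 was the closest of 398 candidates (Euclidean distance 0.042 on centred log2(CPM + 1) values, over 4 libraries), with 2720 and 2012 CPM in CD95L cells, against 1358 and 2271 CPM in vector cells. SNORD50B, SNORD24, SNORD2 and SNORD88C followed at distances of 0.057, 0.060, 0.066 and 0.090. The candidates' median distance was 0.870. Among the 6 RNAs themselves, RMRP was the closest to their mean pattern (0.125) and RN7SK the farthest (0.530).

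Summed over the 6 RNAs, their reads made up 1.00% and 0.738% of all gene reads in CD95L cells, against 0.486% and 0.827% in vector cells. The 95% exact binomial intervals were 0.997 to 1.01% and 0.734 to 0.741% in CD95L cells, against 0.483 to 0.488% and 0.823 to 0.830% in vector cells. These intervals cover counting error only, and none of them overlapped another, so depth did not limit the comparison. The means were 0.869 ± 0.186% in CD95L cells, against 0.656 ± 0.241% in vector cells (SD, n = 2 each), a difference of 0.213 percentage points that is smaller than the SD within the vector group. A two-sided exact permutation test gave p = 0.667, but with 2 against 2 libraries it cannot go below 0.333 and so could make no call. In these bulk samples, fewer cells with an RNA and less of the RNA per cell cannot be told apart.

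Ratios within a library are free of the scaling between libraries and varied less than the levels. RMRP and RPPH1, the RNAs of the paired nucleases, stood at a ratio of 1.59 and 1.69 in CD95L cells, against 1.80 and 1.71 in vector cells. The groups did not overlap, and the log2 ratio differed by -0.10 (exact permutation p = 0.333, two-sided). RN7SL1 and RN7SL2 stood at a ratio of 1.12 and 1.14 in CD95L cells, against 1.19 and 1.16 in vector cells, with a difference in log2 ratio of -0.06 (exact permutation p = 0.333, two-sided). Both values are the smallest p this exact test allows with 2 against 2 libraries, so it could make no call. Of the reads on the 6 RNAs, RMRP took 43.4% and 45.9% in CD95L cells, against 47.7% and 42.9% in vector cells, and its groups overlapped. RPPH1 took 27.4% and 27.1% in CD95L cells, against 26.5% and 25.0% in vector cells. TERC took 2.90% and 2.93% in CD95L cells, against 3.72% and 3.35% in vector cells. The shares of RPPH1 and TERC did not overlap between the groups and those of the 4 others did, and a separation of 2 against 2 libraries in either direction has an exact permutation p of 0.333.

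The protein partners of these RNAs were read as short fragments of their mRNAs, at much lower levels, and none passed the threshold. Of the 11 genes listed for the proteins of RNase P and RNase MRP, RPP25L among them, 10 were tested. Their differences were positive for 6 and negative for 4 (median 0.04). RPP25L, a paralogue of the RNase P subunit RPP25, had the highest level of the list and the smallest p, with 37.5 and 47.8 CPM in CD95L cells, against 22.9 and 23.2 CPM in vector cells. Its groups did not overlap, but its difference of 0.85 (SE 0.25) did not pass adjustment over all genes (limma adjusted p = 0.783).

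Of the 7 proteins of the 7SK particle and P-TEFb, 3 differences were positive and 4 negative (median -0.04). HEXIM2, an inhibitor of P-TEFb that binds 7SK RNA, had 15.3 and 19.1 CPM in CD95L cells, against 11.7 and 13.4 CPM in vector cells, and CCNT1, the cyclin of P-TEFb, had 23.0 and 26.1 CPM in CD95L cells, against 32.9 and 27.4 CPM in vector cells. Neither passed the test (limma adjusted p = 0.923 and 0.935). Of 8 proteins of the signal recognition particle and its receptor, 4 differences were positive and 4 negative (median 0.05), and SRP72, the most abundant, had 18.7 and 19.6 CPM in CD95L cells, against 21.3 and 17.3 CPM in vector cells. SRPRB, a subunit of the receptor, had the smallest p of that list (difference -0.38, limma adjusted p = 0.928).

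Of 8 telomerase genes, 7 differences were positive and 1 negative (median 0.09). PARN, a nuclease that trims the 3′ end of telomerase RNA, was the most abundant, with 72.8 and 128 CPM in CD95L cells, against 93.6 and 88.3 CPM in vector cells. NOP10, one of the proteins bound to the H/ACA part of TERC, had the smallest p (difference -0.40, limma adjusted p = 0.932).

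Of 31 genes of RNA polymerase III and its factors, 11 differences were positive and 20 negative (median -0.07). SSB, the La protein that binds the 3′ ends of new RNA polymerase III transcripts, was the most abundant, with 44.6 and 42.2 CPM in CD95L cells, against 46.3 and 47.3 CPM in vector cells. GTF3C6, a subunit of the transcription factor TFIIIC, had 1.53 and 1.11 CPM in CD95L cells, against 2.41 and 3.30 CPM in vector cells, a difference of -0.73 that did not pass the test (limma adjusted p = 0.849). Of 11 tested RNAs made by RNA polymerase III other than the 6, 2 differences were positive and 9 negative (median -0.15). RNY4, the most abundant, took 139537 and 127901 CPM in CD95L cells, against 182048 and 154923 CPM in vector cells, with a difference of -0.33 that did not pass (limma adjusted p = 0.932). RNA5S9, a 5S RNA gene with the smallest p of the list, had 8.43 and 3.96 CPM in CD95L cells, against 1.61 and 6.12 CPM in vector cells (difference 0.67, limma adjusted p = 0.923). When RNY4 was left out of the total, the median difference of the 6 RNAs was 0.38 in place of 0.43.

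**Figure D5:**
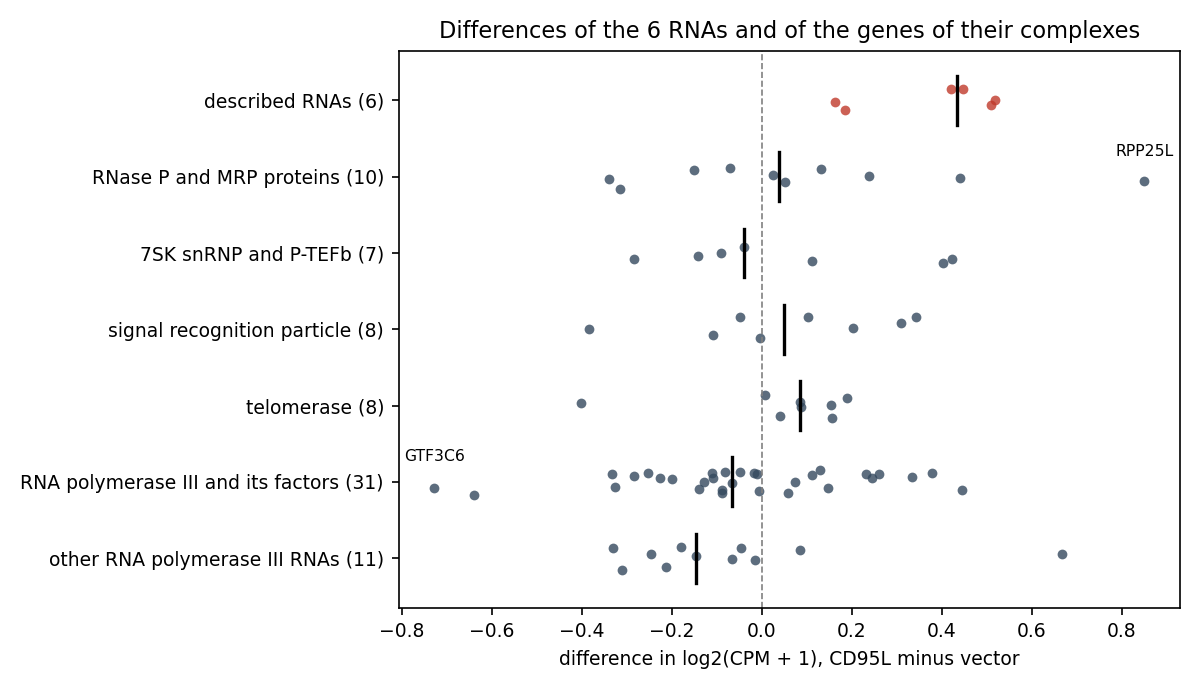
Difference in log2(CPM + 1) between CD95L and vector cells (x axis) for the 6 RNAs and for each tested gene of the lists of their protein partners, RNA polymerase III and its other RNAs (rows, with the number of genes); black lines are medians. No gene shown passed the threshold, and RPP25L (0.85) and GTF3C6 (-0.73) lie farthest from 0.

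The genes next to the 6 RNAs on the chromosome gave few reads. Within 5000 bases, the neighbours with a row in the table were PARP2 at RPPH1, CCDC107 and ARHGEF39 at RMRP, GSTA4 at RN7SK, RPS29 at RN7SL1 and ACTRT3 at TERC. RPS29, which spans RN7SL1 on the opposite strand, had 21.9 and 20.1 CPM in CD95L cells, against 21.6 and 23.4 CPM in vector cells, and did not share the spread of RN7SL1. PARP2, which starts 208 bases from RPPH1 and is read away from it, had 5.42 and 3.29 CPM in CD95L cells, against 3.97 and 4.73 CPM in vector cells. ARHGEF39 had 3.67 and 3.87 CPM in CD95L cells, against 8.03 and 3.46 CPM in vector cells, and the 3 others were under 3 CPM in every library. None passed the test among those that averaged 1 CPM or more.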

How the data were processed

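Small RNA libraries from HCT116 Drosha k.o. cells (2 CD95L, 2 vector) were analysed from 1 table. The authors aligned trimmed reads to hg38 and counted them per gene; the submitters' processing notes name TopHat, Bowtie2 and HTSeq, with versions and settings not given in the sources used here. Values deposited were CPM, which the authors computed from these counts. Whole reads were recovered for 100% of values (within 0.01 read). CPM are shares, so they move with the level of every other RNA in the library.

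Levels were tested on log2(CPM + 1) with limma 3.58.1 (R 4.3.3), two-sided, without trend or block, in genes averaging 1 CPM or more, with Benjamini-Hochberg adjustment over all of them; differences are CD95L minus vector. The recovered reads were also tested with edgeR 4.0.16 and DESeq2 1.42.0. Scripts were tested on simulated data. Other pseudocounts, filters and scalings and leaving out each library were tried. Transcripts, positions and windows came from GENCODE v44 and hg38, and the RefSeq length of TERC from GRCh38. Named genes were the 6 RNAs, the most abundant gene and that with the smallest p of each list, the 5 closest patterns, neighbours within 5000 bases and FASLG. The members and lists were chosen with earlier results of these data known. The RN7SL1 and RN7SL2 sequences are not reported here. The replicate numbers of the groups were not used as pairs.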

Additional observations from a re-analysis of the deposited data

How the results depend on the processing

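The difference of none of the 6 RNAs passed the threshold under any of 14 alternatives. RPPH1, RMRP and RN7SK were positive under all of them, RN7SL1 and RN7SL2 under 13 and TERC under 12. With 1 library left out, RN7SL1 ranged between -0.18 and 1.07, RN7SL2 between -0.14 and 1.16 and TERC between -0.14 and 0.47, with TERC at -0.05 without the first CD95L library. The median of the 6 ranged between -0.012 and 0.80. Under the settings that kept all libraries, the median stayed between 0.37 and 0.44.

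The count of genes called over all genes depended on the setting, although no setting called any of the 6 RNAs. It was 1 with limma on log2(CPM + 1), 0 with a pseudocount of 0.1, 0 with no filter, 29 with limma's trend, 30 with TMM scaling, 31 with DESeq2 size factors, 72 with edgeR, 50 with DESeq2, and between 5 and 83 with 1 library left out (5 without the first CD95L library, 7 without the second, 20 without the first vector library, 83 without the second). The cause was not tested. Genes whose CD95L libraries lay above all vector libraries numbered 2573 with all libraries, 2720 under TMM scaling (without RN7SK), 2162 with RNY4 left out of the total, and between 4100 and 6747 with 1 left out, where fewer libraries have to be ordered.

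With the replicate number as a block, 80 genes were called and none of the 6 RNAs. Over all 16127 genes tested, deviations from the group means of libraries with the same number were not correlated (r = -0.002). For each of the 6 RNAs, libraries with the same number deviated in opposite directions. Neither observation can show whether such libraries shared a day or a virus batch. With 2 libraries per group, 1 library decides the sign of RN7SL1, RN7SL2 and TERC, and depth is not the limit.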
